A study of Drosophila melanogaster with 4 samples.

Results

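The genes described here act at the end of purine breakdown in Drosophila melanogaster: ry (rosy), which encodes xanthine dehydrogenase; mal (maroon-like) and cin (cinnamon), which supply its molybdenum cofactor; and Uro, which encodes urate oxidase. They were taken as a named set of 4 genes, matched by symbol to FlyBase identifiers among 12073 identifiers, and 3 of the 4 had a row in the count tables. cin (FBgn0000316) had no row under its identifier in the tables used here and was not analysed. The set was chosen by its RPKM values in these same libraries, with earlier results known, so the members' levels are a description and carry no test.

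Xanthine dehydrogenase oxidises hypoxanthine to xanthine and xanthine to urate, and it also acts in the synthesis of the pteridine eye pigments, which is why rosy, maroon-like and cinnamon mutants have dull eyes. The enzyme works only with a molybdenum cofactor: cin joins molybdenum to a pterin, and mal then replaces an oxygen on the metal with sulphur, a step that xanthine dehydrogenase and the aldehyde oxidases need and sulphite oxidase does not. Urate scavenges reactive oxygen species, and flies lacking it through rosy or maroon-like mutations are known to be sensitive to paraquat. Urate oxidase breaks urate down further and is made in the principal cells of the Malpighian tubules, the kidney-like organs of the fly.

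Poly-A RNA was sequenced from whole adult females aged 1 to 3 days, in groups of 5 flies per extraction. The wild type was w1118 and the mutant carried the kdm5 allele pair K6801/10424 in the same w1118 background. Both genotypes thus have the white mutation, itself an eye-pigment defect, in their background. The labels do not say whether either kdm5 allele brings a working copy of white. Flies of each genotype were fed 5% sucrose for 6 hours (control) or 5% sucrose with 20 mM paraquat, which generates superoxide in cells. There was 1 library for each combination of genotype and feeding, so differences are given without a p-value and without any check between replicates. As background on the mutant, lines numbered like 10424 come from a collection of P{PZ} insertions, a transposon that carries a working copy of ry as its eye-colour marker; the labels do not describe the insertion behind this allele.

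Depth ranged from 27.9M to 29.1M uniquely mapped reads per library. Levels are given as RPKM, reads scaled to gene length in kilobases and to library depth. Kdm5 itself was at 43.4 RPKM without and 22.5 with paraquat in wild type, and at 2.06 and 2.03 RPKM in the mutant. Of 5 male reproductive tract genes with a row, 0 reached 1 RPKM, and the yolk protein genes summed to between 3970 and 9433 RPKM. The wild type control library differed from the others in its tissue markers: its summed muscle list was at 1681 RPKM against 4190 to 5756 elsewhere, and its summed eggshell list at 6729 against 1686 to 3144. The size rule calls a gene higher or lower when its log2(RPKM + 1) differs by 1 or more and either library reaches 1 RPKM. Fold differences divide one RPKM by another, and the 95% intervals printed after levels and folds cover counting error only.

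The gene ry (FBgn0003308; chromosome 3R, 13032528 to 13038020 in the BDGP6 annotation, plus strand, overlapping no other annotated gene) was scarce in wild type and several times more abundant in the kdm5 mutant. Wild type control flies had 2.91 RPKM (2.64 to 3.19, from 446 reads), with 3.75 RPKM (3.45 to 4.06, 595 reads) after paraquat. The mutant libraries held 21.1 RPKM (20.3 to 21.8, 3274 reads) in control and 14.2 RPKM (13.6 to 14.8, 2270 reads) with paraquat. Both mutant libraries lay above both wild type libraries.

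In control flies ry was 7.25-fold higher in the mutant (6.56 to 8.02), a difference of 2.50 in log2(RPKM + 1) that ranked 47 from the top of 8364 genes. Under paraquat it was 3.79-fold higher (3.46 to 4.16), a difference of 1.68 that ranked 59 of 8487. These genotype comparisons share no library. Of the members, 1 of 3 was called higher in each, where 6.55% of all genes were called higher and 5.75% lower in control, and 2.3% higher and 2.7% lower under paraquat. The choice of members used these contrasts, so nothing is read from the counts. Set against wild type paraquat flies in place of the wild type control, a baseline chosen after the data were seen, the mutant control level of ry was 5.62-fold higher (5.15 to 6.14).

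**Figure D1:**
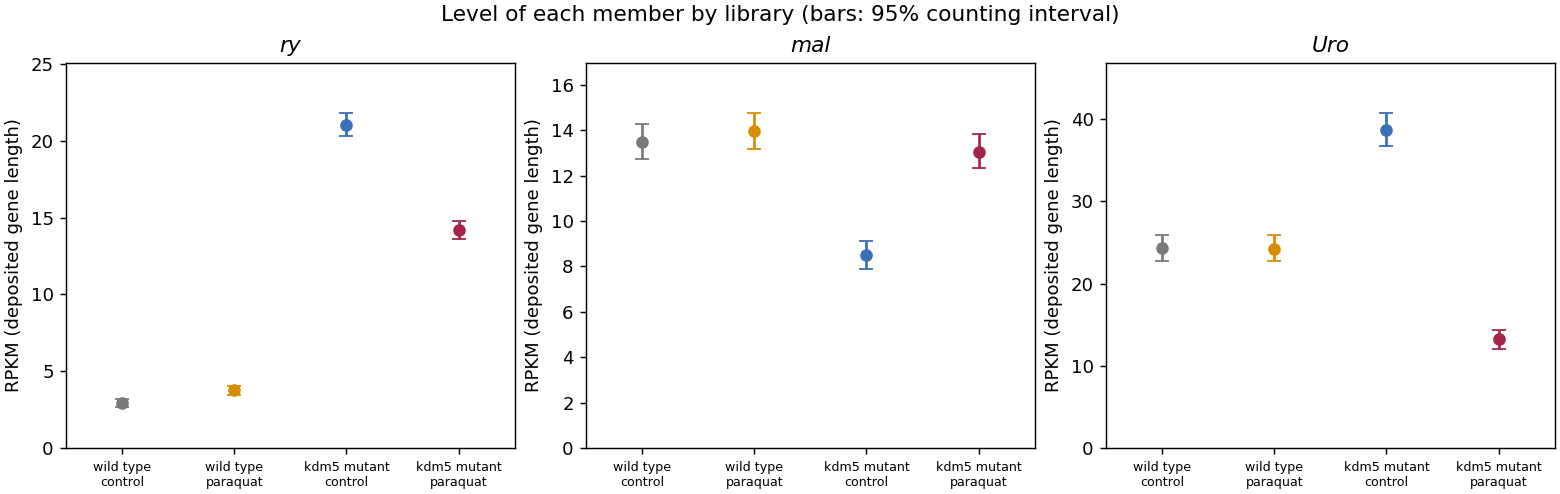
Level of ry, mal and Uro in RPKM on the deposited gene length (vertical axis, starting at 0) in each of the 4 libraries (horizontal axis), with 95% counting intervals as bars. The mutant libraries stand at 21.1 and 14.2 RPKM for ry against 2.91 and 3.75 in wild type, mal is lowest in the mutant control at 8.50, and Uro is highest in the mutant control at 38.7 and lowest in the mutant with paraquat at 13.2.

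Reads covered 73.4% and 79.6% of the deposited length of ry in the wild type control and paraquat libraries, and 95.9% and 94.1% in the mutant libraries. Exons of the BDGP6 annotation make up 79.0% of the gene's span of 5493 bases, which equals the deposited length, so by coverage the mutant libraries, and by a small margin wild type with paraquat, held reads outside these exons. Coverage grows with read number and is not a separate measure of level. A transcript from a ry copy on a P{PZ} transposon and one from the gene on 3R would add to the same count. The higher ry level of the mutant therefore cannot be told apart from added copies of the gene.

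The genes next to ry were examined for that reason after its values had been seen. The nearest upstream gene, l(3)87Df, which ends 929 bases before ry on the same strand, was at 15.1 RPKM without and 12.7 with paraquat in wild type, against 39.7 and 38.6 in the mutant. It was 2.63-fold higher in mutant control flies (2.30 to 3.03) and 3.05-fold higher under paraquat (2.64 to 3.53), past the size rule in both. None of the 3 downstream genes within 6 kb was called, and of these only snk reached 1 RPKM. Of all genes, 12.3% were called in control and 5% under paraquat. CG11668, 354 bases after ry, and CG11670 stayed under 1 RPKM in the 4 libraries, with 11 to 35 and 1 to 12 reads. The protease gene snk differed by −0.13 in control and 0.49 under paraquat. Around mal and Uro, 10 genes within 6 kb had rows, of which 6 in control and 7 under paraquat reached 1 RPKM and could be called. These differed between genotypes by −0.89 (Brd7-9) to 0.08 (CG7149) in control and by −0.28 (CG7149) to 0.34 (Brd7-9) under paraquat, and none was called. With so few genes, the shares of all genes allow no reading of these counts.

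**Figure D2:**
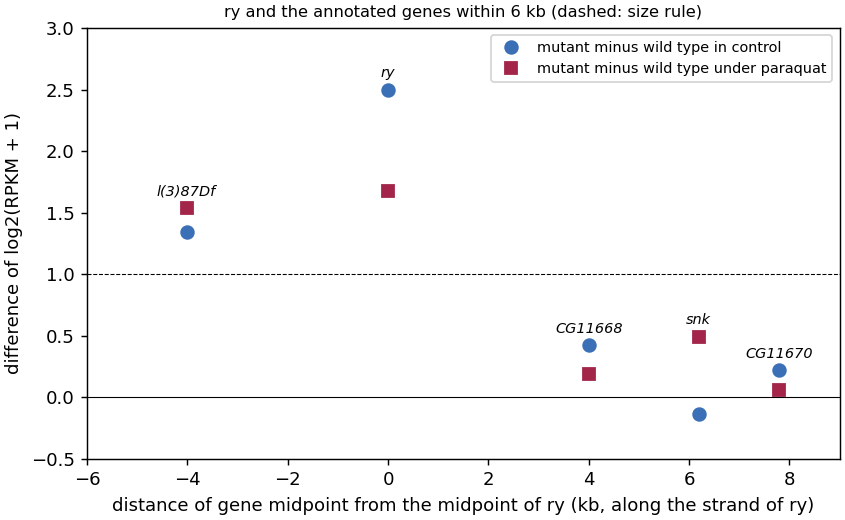
Difference of log2(RPKM + 1) between mutant and wild type (vertical axis) for ry and the 4 annotated genes within 6 kb, placed by the distance of their midpoints from that of ry in kb (horizontal axis); circles are control flies and squares paraquat flies, 1 library each. ry and the upstream l(3)87Df lie above the dashed size rule in both conditions, and the 3 downstream genes lie below it.

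The response of ry to paraquat had opposite signs in the genotypes and passed the size rule in neither. In wild type the paraquat library was 1.29-fold higher than control (1.14 to 1.46), a difference of 0.28, while the median gene of that comparison differed by −0.29. In the mutant the paraquat library was 1.48-fold lower (1.40 to 1.56), a difference of −0.54 with a median gene at −0.05. The difference between these responses was −0.82 in log2(RPKM + 1), short of the size rule.

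The other molybdenum enzymes gave a background for ry. AOX3, an aldehyde oxidase of the same protein family that also needs the sulphurated cofactor, was at 10.4 RPKM without and 10.5 with paraquat in wild type, against 23.4 and 25.1 in the mutant. It was 2.25-fold higher in mutant control flies (2.12 to 2.40) and 2.40-fold higher under paraquat (2.26 to 2.55). AOX3 was thus called higher in both genotype comparisons, by 1.10 and 1.19, with paraquat differences of 0.01 in wild type and 0.10 in the mutant. With a pseudocount of 5 it was no longer past the size rule in either.

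The neighbouring paralogs AOX2 and AOX4 reached 0.227 and 0.370 RPKM at most, with 7 to 31 and 9 to 45 reads per library, too few to compare. Because only uniquely mapped reads were counted, the levels of these related tandem genes are uncertain on the absolute scale. Marc, which encodes the mitochondrial amidoxime reducing component, another molybdenum enzyme, was at 17.2 RPKM without and 12.6 with paraquat in wild type, against 17.6 and 14.2 in the mutant. Its genotype differences were 0.03 and 0.17. Of the 7 molybdenum enzymes listed, 5 had rows and 3 reached 1 RPKM. Of these, ry and AOX3 were called higher in the mutant in both conditions, beside 6.55% of all genes in control and 2.3% under paraquat. None of the 3 was called in either paraquat comparison, beside 15.6% of all genes in wild type and 1.32% in the mutant. AOX1 and the sulphite oxidase gene shop were not analysed here.

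The cofactor gene mal (FBgn0002641; chromosome X, 20429675 to 20433210, plus strand) varied over a narrower range than ry. Its level was 13.5 RPKM (12.7 to 14.3) for wild type control flies, 14.0 (13.2 to 14.8) for wild type with paraquat, 8.50 (7.90 to 9.13) in the mutant control and 13.1 (12.3 to 13.8) in the mutant with paraquat. The mutant control library was the low one, and the counting intervals of the other 3 overlapped. mal was 1.59-fold lower in the mutant than in wild type control flies (1.45 to 1.74), a difference of −0.61, and the fold between genotypes under paraquat was 0.936 with an interval that includes 1 (0.863 to 1.01). With paraquat it was 1.54-fold higher in the mutant (1.40 to 1.69), a difference of 0.57 that ranked 183 from the top of 8288 genes but stayed short of the size rule. The wild type fold was 1.03 (0.954 to 1.12).

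Thus mal and ry were ordered differently across the libraries. In mutant control flies, where ry was highest, mal was lowest. Per deposited length mal exceeded ry 4.64-fold in the wild type control and 3.72-fold in wild type with paraquat. On that length ry exceeded mal 2.48-fold in the mutant control and 1.09-fold in the mutant with paraquat. These folds depend on the length used, since the deposited length of ry is its whole span and not its exons alone. Scaled to summed exon length instead, mal was at 12.9 and ry at 3.68 in the wild type control. In wild type with paraquat they were at 13.4 and 4.74. In the mutant control ry was at 26.7 and mal at 8.15, and with paraquat at 18.0 and 12.5. The adjoining gene CG11710, which lies 1 base upstream of mal on the opposite strand, was at 14.5, 10.5, 11.2 and 13.5 RPKM in the same order of libraries. Counting by strand is not stated, so a few reads at that boundary may belong to the neighbour.

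No gene for the earlier steps of cofactor synthesis was called. Mocs1, which starts the pathway from GTP, was at 9.55 RPKM without and 13.1 with paraquat in wild type, against 10.95 and 16.3 in the mutant. Its paraquat differences were 0.42 in wild type and 0.54 in the mutant. Uba4, which activates the sulphur carrier subunit of molybdopterin synthase, was between 11.2 and 15.9 RPKM. Nfs1, a cysteine desulphurase that mobilises sulphur, was between 25.9 and 30.6 RPKM. Of the 7 cofactor genes listed, mal and cin included, 4 had rows, and 0 of these 4 were called in any of the 4 comparisons. Of all genes, 5.21% were called higher and 10.4% lower with paraquat in wild type, and 0.712% and 0.603% in the mutant. Between genotypes 6.55% were higher and 5.75% lower in control, and 2.3% and 2.7% under paraquat. With 4 genes, 0 called is near these shares, so nothing is read from it.

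**Figure D3:**
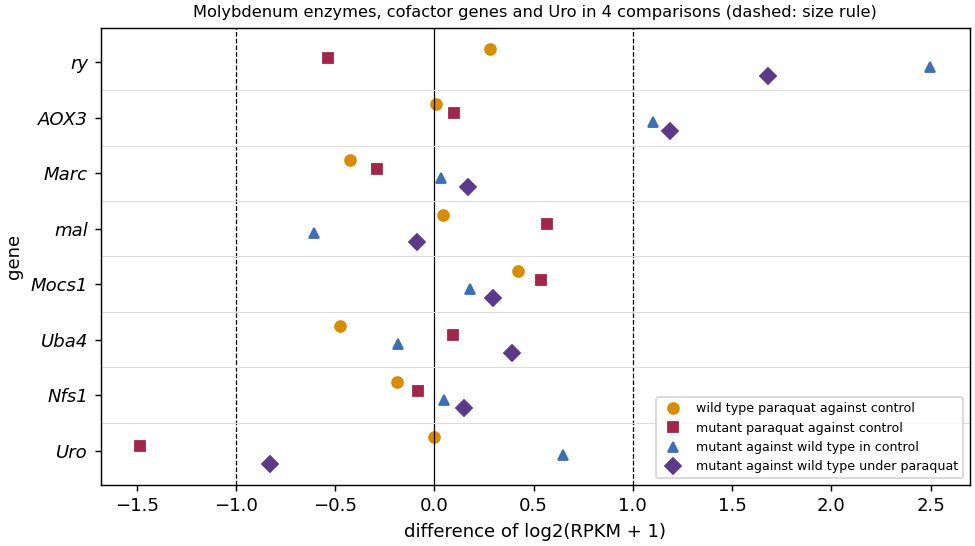
Difference of log2(RPKM + 1) (horizontal axis) for 3 molybdenum enzymes (ry, AOX3, Marc), 4 cofactor genes (mal, Mocs1, Uba4, Nfs1) and Uro (vertical axis) in 4 comparisons of 1 library each; dashed lines mark the size rule. Points past it are ry and AOX3 on the higher side between genotypes in both conditions, and Uro at −1.48 on the lower side in the mutant with paraquat.

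Uro (FBgn0003961; chromosome 2L, 7780085 to 7781415, plus strand, overlapping no other annotated gene) was the member past the size rule with paraquat, in the mutant and not in wild type. Wild type flies held 24.3 RPKM (22.7 to 25.9, 903 reads) in control and 24.2 RPKM (22.7 to 25.9, 933 reads) with paraquat. The mutant held 38.7 RPKM (36.7 to 40.7, 1457 reads) in control and 13.2 RPKM (12.1 to 14.4, 511 reads) with paraquat. The wild type libraries lay between the mutant libraries.

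In the mutant Uro was 2.93-fold lower with paraquat (2.65 to 3.25), a difference of −1.48 that ranked 16 from the bottom of 8288 genes. The size rule called 1.32% of all genes in that comparison, with 0.603% of all genes lower. The wild type fold was 0.999 (0.910 to 1.10). The difference of the responses was −1.48, also past the size rule, where 8.36% of 8611 genes were called higher and 6.18% lower. Between genotypes, Uro was 1.59-fold higher in mutant control flies (1.47 to 1.73; difference 0.65) and 1.84-fold lower in the mutant under paraquat (1.65 to 2.05; difference −0.83), neither of them past the size rule.

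Markers of the Malpighian tubule were set beside Uro, since in whole-fly RNA fewer cells of a type and less RNA per cell cannot be told apart. Of 12 tubule genes listed, 11 had rows and 9 reached 1 RPKM, and none of the 11 was without reads. Their summed level was 47.8 RPKM in the wild type control, 80.7 in wild type with paraquat, 70.2 in the mutant control and 64.1 in the mutant with paraquat. The single gene salt held 39.7 of the 80.7 RPKM in wild type with paraquat. The list's median level was ordered differently, at 2.41, 3.31, 4.61 and 3.98 RPKM over the same libraries. In the mutant pair, where Uro was lower with paraquat, 0 of 9 tubule genes were called, beside 1.32% of all genes, so nothing is read from that count. Their median difference was −0.07, beside −0.05 for all genes. The potassium channel gene Irk3, which like Uro marks principal cells, was at 14.0 and 8.36 RPKM there. It was 1.67-fold lower with paraquat (1.52 to 1.85) and short of the size rule. Its difference of −0.68 was the most negative of the list and was picked after the values were seen. Of the 9 genes, 6 had negative and 3 positive differences, with ZnT35C at 0.08 and salt at 0.25.

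Between genotypes in control flies 8 of 9 tubule genes had positive differences (median 0.45, beside −0.19 for all genes and 0.65 for Uro). Under paraquat 4 were positive and 5 negative (median −0.05, beside 0.08 and −0.83). With paraquat in wild type 7 of 8 were positive (median 0.37, beside −0.29 and −0.002). For the difference of responses 8 of 9 were negative (median −0.53, beside 0.25 and −1.48). A link to Uro was not tested. The tubule genes past the size rule were Oatp58Db and salt. The organic anion transporter Oatp58Db was at 0.920 RPKM without and 0.875 with paraquat in wild type, against 9.50 and 8.26 in the mutant, called higher between genotypes by 2.45 and 2.30. The transporter gene salt was at 16.4 and 39.7 RPKM in wild type and 12.6 and 15.2 in the mutant. With paraquat it was called higher in wild type, by 1.23, and under paraquat the mutant was below wild type, by −1.33.

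The order of the members by level per length changed between genotypes. In both wild type libraries it was Uro, then mal, then ry, with counting intervals that did not overlap between neighbours in that order. In the mutant control it was Uro, then ry, then mal, again without overlap. In the mutant with paraquat ry, Uro and mal lay at 14.2, 13.2 and 13.1 RPKM with overlapping intervals. Scaled to summed exon length, these genes lay further apart in that library, at 18.0, 13.9 and 12.5, given without intervals. Uro exceeded ry 8.36-fold in the wild type control and 1.84-fold in the mutant control.

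Genes that make purines and genes that feed xanthine dehydrogenase its substrate were described from lists chosen with earlier results of these libraries known. In control flies 4 of 10 measured genes of purine synthesis and salvage were higher in the mutant and 0 lower (3 higher with a pseudocount of 5), beside 6.55% of all genes higher and 5.75% lower. Their median difference was 0.53 where the median of all genes was −0.19. Under paraquat 3 of 10 were higher and 0 lower, beside 2.3% and 2.7% of all genes, with a median of 0.59 beside 0.08 for all genes. The genes called were Prat2, Gart, Pfas and, in control only, Paics, which act in de novo synthesis.

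Prat2, one of the paired genes for the amidotransferase that commits the cell to purine synthesis, was at 5.58 RPKM without and 7.75 with paraquat in wild type, against 49.4 and 37.9 in the mutant. It was 8.84-fold higher in mutant control flies (8.02 to 9.77) and 4.89-fold higher under paraquat (4.49 to 5.33). Its paralog Prat was at 41.0 and 20.9 RPKM in wild type and 31.4 and 29.1 in the mutant, and was called in neither genotype comparison.

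Gart, a trifunctional enzyme of the same route, was at 10.4 and 10.0 RPKM in wild type and 33.3 and 26.6 in the mutant (3.19-fold higher in control, 3.06 to 3.33; 2.66-fold under paraquat, 2.54 to 2.78). Pfas, the amidotransferase of a later step, was at 23.0 and 15.7 RPKM in wild type and 49.2 and 39.2 in the mutant. Paics, which acts after it, was at 33.8 and 28.4 RPKM in wild type and 78.4 and 57.2 in the mutant; it was called in control at 1.19, and at 0.98 it lay just under the size rule with paraquat. The genes that turn the finished ring into guanine nucleotides, ras and bur, had genotype differences of −0.34 and −0.56 in control and 0.17 and 0.23 under paraquat.

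Purine breakdown upstream of ry had 9 genes at 1 RPKM in the genotype comparisons. In control flies 2 were higher and 1 lower in the mutant, beside 6.55% and 5.75% of all genes. With a pseudocount of 0.1, 4 were higher, and with 5, 1 was higher. Their median difference was 0.55, beside −0.19 for all genes. Under paraquat 1 was higher and 0 lower, beside 2.3% and 2.7% of all genes, with a median of 0.42 beside 0.08. CG16758, annotated as a purine nucleoside phosphorylase, the enzyme that releases hypoxanthine and guanine from their nucleosides, was at 5.22 and 5.01 RPKM in wild type and at 59.8 and 39.4 in the mutant. It was 11.5-fold higher in mutant control flies (10.5 to 12.5) and 7.86-fold higher under paraquat (7.22 to 8.56). Adgf-D, of the adenosine deaminase-related growth factor family, was at 3.55 RPKM in wild type and 9.90 in mutant control flies, called higher at 1.26. Ada, listed as adenosine deaminase, was at 6.42 and 2.36 RPKM in the same libraries, called lower at −1.14; against wild type paraquat flies as the baseline 0 genes of this list were lower.

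With paraquat, no gene of the synthesis or the breakdown list was called in either genotype, beside 15.6% of all genes in wild type and 1.32% in the mutant. CG16758 and Prat2, like ry, had negative differences in the mutant, at −0.59, −0.37 and −0.54, where the medians of the breakdown and synthesis lists were −0.05 and −0.20. In wild type their differences were −0.05 and 0.41, beside 0.28 for ry. Set against wild type paraquat flies in place of the wild type control, CG16758, Prat2 and Gart were 11.9-fold (11.0 to 13.0), 6.37-fold (5.86 to 6.93) and 3.32-fold (3.18 to 3.47) higher in mutant control flies.

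**Figure D4:**
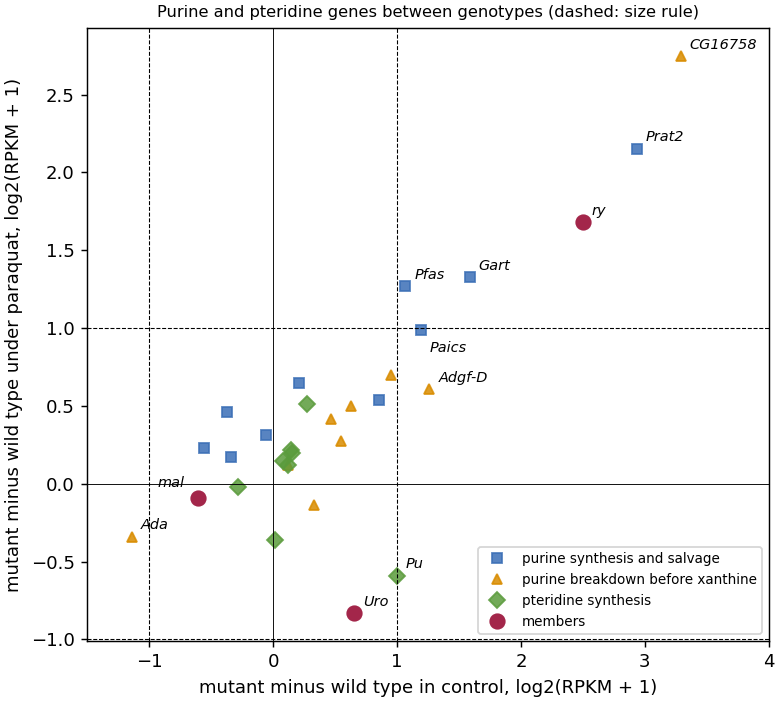
Mutant minus wild type difference of log2(RPKM + 1) in control flies (horizontal axis) and under paraquat (vertical axis) for genes reaching 1 RPKM in the purine synthesis, purine breakdown and pteridine lists and for the members ry, mal and Uro; dashed lines mark the size rule. ry, Prat2, CG16758, Gart and Pfas are past the rule on both axes, Paics lies just under it on the vertical axis at 0.98, and mal and Uro are inside it.

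In the pteridine pathway, in which xanthine dehydrogenase also acts, all 8 genes listed had rows. Between genotypes 0 were called in either condition (medians 0.13 and 0.13), beside 12.3% of all genes in control and 5% under paraquat. Pu, the GTP cyclohydrolase that starts the pathway, was at 4.74 RPKM without and 13.2 with paraquat in wild type, against 10.5 and 8.41 in the mutant. It was 2.78-fold higher with paraquat in wild type (2.58 to 2.99) and called, though not with a pseudocount of 5, while its mutant difference was −0.28. The other 7 were called in no comparison. Between genotypes in control flies Pu differed by 1.00 on rounding, just short of the size rule, and 1 of the 8 genes was called there with a pseudocount of 0.1, median-ratio or upper-quartile scaling, totals without mt:lrRNA reads, or values not divided by length.

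Fat body markers were set beside ry because the adult fat body is a main site of xanthine dehydrogenase. Their summed level over 6 genes with rows was 106 RPKM in the wild type control, 171 in wild type with paraquat, 418 in the mutant control and 295 in the mutant with paraquat, and all 6 reached 1 RPKM. The sum is carried by the lipoprotein gene apolpp, at 60.1 RPKM in wild type and 183 in mutant control flies, and the larval storage protein gene Lsp2, at 10.6 and 149. Fbp1 had the list's largest difference there, 4.07, at 1.93 and 48.3 RPKM. Between genotypes 3 of 6 were higher in control, beside 6.55% of all genes, and 1 of 6 under paraquat, beside 2.3%. The lipid droplet gene Lsd-1 differed by −0.17 and −0.50 in these comparisons, and the hormone receptor gene AkhR by 0.43 and −0.25. With paraquat in wild type, where ry was not called, 3 of 6 were higher (median 0.72), beside 5.21% of all genes. With paraquat in the mutant 0 of 6 were higher and 1, Fbp1 at −1.03, was lower, beside 0.712% and 0.603% of all genes. There 2 of 6 were positive and 4 negative (median −0.32, beside −0.05 for all genes). For the difference of responses all 6 were negative (median −0.70, beside 0.25 for all genes and −0.82 for ry). The sum was ordered over the libraries as ry was, but the list's median level was not: it was 11.3 RPKM in wild type control, 28.4 in wild type paraquat, 32.9 in mutant control and 26.0 in mutant paraquat flies. The part of the fat body markers in the ry difference was not tested. The female germline list, by contrast, summed to 647, 382, 460 and 491 RPKM in the same order of libraries.

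**Figure D5:**
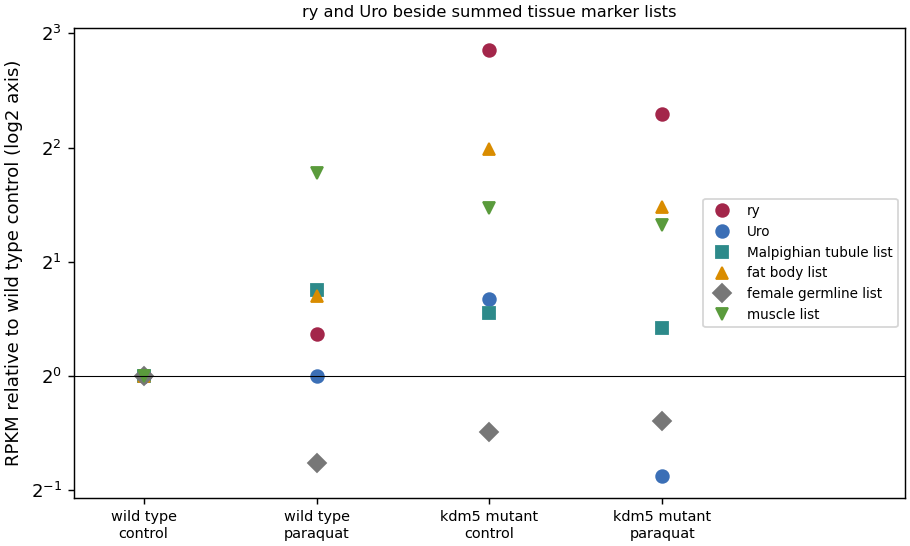
Level of ry and Uro and summed levels of the Malpighian tubule, fat body, female germline and muscle lists, each relative to its own value in the wild type control (vertical axis, log2 scale), in the 4 libraries (horizontal axis). ry and the summed fat body list are highest in the mutant control and next highest in the mutant with paraquat, and Uro is at its lowest in the mutant with paraquat, where the tubule list is at 64.1 RPKM against 47.8 in the wild type control.

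Genes whose profile over the 4 libraries was nearest to each member were found by Euclidean distance between values of log2(RPKM + 1) centred on each gene's mean, among 6795 genes that reached 5 RPKM. Nearest to ry was CG16704, at a distance of 0.14, with 7.23 RPKM without and 7.88 with paraquat in wild type, against 40.3 and 28.0 in the mutant. It was followed by an identifier without a symbol in the reference table at 0.24 and by CREG at 0.31. For mal the nearest were CG42240, Alr and CG30010, at 0.11, 0.11 and 0.14. For Uro no gene came closer than CG11841 at 0.46, which was at 5.93 and 8.56 RPKM in wild type and 10.4 and 4.60 in the mutant, with CG14309 and CG8562 at 0.51 and 0.51. With 4 points per gene the distance is a description of these libraries.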

How the data were processed

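The authors deposited 1 table per library with counts of uniquely mapped reads, gene length, the percent of that length covered, and RPKM, per the file headers. Cufflinks and the build dm3 are named in the submitters' processing notes; the sources used here do not give aligner, annotation release or strand of counting. Deposited RPKM equals reads per deposited length and per total, within a relative gap of 5.13e-07, and was used as deposited. Identifiers missing from 1 library but listed in another were taken as 0 reads. Symbols matched 11666 of 12073 identifiers. Positions and exons are from BDGP6, a later build than dm3. Levels between genes are per deposited length, which for mal (3076 bases) differs from its BDGP6 span of 3536.

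Groups of 1 library allow no test, and the precision is that of counting alone. Intervals at 95% are exact Poisson for levels and exact Clopper-Pearson for folds. The code for the size rule was tested on simulated data with counting error only, which says nothing of the spread between flies. Computation used Python 3.11.15, pandas 2.3.3 and SciPy 1.17.1.

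Members and lists were chosen with earlier results of these data known. Named genes are the members, the molybdenum genes, up to 4 called genes per other list, and the 3 nearest profiles per member; others, such as neighbours, Prat, ras, bur, Irk3, Lsd-1 and AkhR, were chosen after their values were seen. The settings varied were the pseudocount (0.1 or 5), the minimum (none or 5 RPKM), the scaling (median-ratio, upper-quartile, or without mt:lrRNA reads) and, for the order of levels, summed exon length. Skipping the division by length and using another baseline were chosen after seeing the data. The planned motif search in promoters was not run.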

Additional observations from a re-analysis of the deposited data

Results flagged for a closer look

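The paraquat difference of ry was positive in wild type and negative in the mutant, with counting intervals of both folds apart from 1. The responses differed by −0.82 in log2(RPKM + 1), and with 1 library per group this difference was not tested.

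The genotype difference of Uro was positive in control flies and negative under paraquat, again with both counting intervals apart from 1. The paraquat responses of the genotypes differed by −1.48 in log2(RPKM + 1), and this difference was not tested either.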

How the results depend on the processing

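No paired analysis was possible because each group held 1 library, and leaving out a library was possible only by changing the baseline. The number of members past the size rule stayed at 0 for wild type with paraquat under every alternative run, beside 15.6% of all genes. It stayed at 1 for the mutant with paraquat, the genotype comparisons in control and under paraquat, and the difference of responses. The shares of all genes there were 1.32%, 12.3%, 5% and 14.5%. The changed minimum could not alter these counts, since measured members reached 1 RPKM and called ones lay above 5 RPKM in a library compared. Over these alternatives the difference of ry ranged from 1.72 to 2.82 between genotypes in control and from 1.14 to 1.90 under paraquat, and that of Uro in the mutant with paraquat from −1.54 to −1.26. Summed exon length left the order of the members as it was in all 4 libraries, but raised ry against mal and Uro. Of 123 alternative values of member differences, 21 moved by more than the counting interval and 0 called values reversed. Reversal was counted for called values only. The uncalled Uro difference in wild type with paraquat went from −0.002 to 0.17 with median-ratio and 0.28 with upper-quartile scaling. The 123 include the changed minimum (none or 5 RPKM), which cannot alter a difference and so always counts as not moved. Median-ratio and upper-quartile scaling shifted the median gene by 0.16 and 0.26 in wild type with paraquat and by 0.10 and 0.13 between genotypes in control. Calls over all genes depend on the settings: they ranged from 589 to 1874 (1318 as reported) in wild type with paraquat, from 65 to 189 (109) in the mutant with paraquat, from 435 to 1476 (1029) and from 204 to 631 (424) between genotypes in control and under paraquat, and from 528 to 1946 (1252) for the difference of responses. Depth limits AOX2, AOX4, CG11668 and CG11670, all under 1 RPKM.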
